A study of Homo sapiens with 6 samples.

Results

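NUP210 was examined together with 29 other nucleoporin genes in RNA-seq libraries of HGC-27 cells, to see whether its lower level under ACAT2 knockdown was shared by the nuclear pore complex. The 30 genes were chosen by name as subunits of the pore, from a table of 58735 genes. NUP210 itself was singled out because its lower level in these libraries was already known, so its own p-value is no independent support. HGC-27 is a line established from an undifferentiated gastric carcinoma. The control group (shNC, n = 3) received the pSIH-H1-Puro-shNC plasmid and the knockdown group (shACAT2, n = 3) received pSIH-H1-Puro-shACAT2. Both were labelled wild type, were transfected for 24 h and were then kept in puromycin for 7 days, so every library came from drug-selected cells. The series text calls the 3 libraries of a group biological replicates. The study's methods describe the control as an empty vector and list more than one ACAT2 hairpin, and the labels do not say which hairpin these cells carried.

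The nuclear pore complex is the channel through which proteins and RNA pass between nucleus and cytoplasm. Its scaffold is an outer ring, built from the Y complex, and an inner ring that lines the pore membrane, and membrane nucleoporins anchor both in the nuclear envelope. Phe-Gly repeat nucleoporins fill the channel, filaments on the cytoplasmic face serve mRNA export, and a basket reaches into the nucleus. NUP210, also called gp210, is a membrane nucleoporin with a large domain in the lumen of the envelope, and it is known for levels that differ between cell types and rise in muscle and neural differentiation.

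Levels were deposited as FPKM, fragments per kilobase of gene scaled for library size, a scale corrected for gene length on which genes may be compared. Each library held 14086416 to 16067486 fragments on genes. A gene was tested when its mean was at least 1 FPKM in either group, which left 13832 genes, and differences are given on the log2(FPKM + 1) scale as shACAT2 over shNC, with a Benjamini-Hochberg adjusted p from limma and a threshold of 0.05. ACAT2, the targeted gene and a cytosolic acetyl-CoA acetyltransferase, stood at 14.2, 11.7 and 12.7 FPKM in shNC and 6.19, 5.46 and 6.05 FPKM in shACAT2, a log2 fold change of -1.01 (SE 0.10, limma adjusted p = 0.00594). Without shNC replicate 3 its limma adjusted p was 0.0512. The labelled tissue was stomach, but the 7 gastric lineage markers summed to at most 0.492 FPKM in any library, with 3 of them at 0 in all, and the 5 epithelial markers summed to 0.505 to 0.830 FPKM in shNC and 1.44 to 2.22 FPKM in shACAT2. shACAT2 replicate 3 had 7477 genes with a fragment in no other library, against 416 to 657 in the others. shNC replicates 2 and 3 were much closer to each other than any other pair of a group. Their fragments differed by a chi-square of 1.71 per gene, against 10.8 to 39.3 for the other pairs. Whether they were separate cultures could not be settled, and n = 3 counts them as separate.

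NUP210 (ENSG00000132182) lies on the minus strand at chr3:13316235-13420309 of hg38. Its RefSeq promoter window, the 250 bases before the RefSeq start at chr3:13420323-13420572 (GRCh38.p14, minus strand), and that of POM121, a membrane nucleoporin at chr7:72879107-72879356 (plus strand), are shown because both proteins sit in the pore membrane while their levels under knockdown differed. Neither window overlapped an annotated exon. Capitals mark the GC box (GGGCGG or its complement) in NUP210 and the ETS motif (CCGGAAG or its complement) in POM121.
NUP210 promoter: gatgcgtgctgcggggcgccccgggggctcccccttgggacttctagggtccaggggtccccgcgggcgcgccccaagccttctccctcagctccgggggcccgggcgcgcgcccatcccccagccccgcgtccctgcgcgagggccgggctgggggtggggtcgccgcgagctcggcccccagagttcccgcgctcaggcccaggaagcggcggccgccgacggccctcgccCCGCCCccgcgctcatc
POM121 promoter: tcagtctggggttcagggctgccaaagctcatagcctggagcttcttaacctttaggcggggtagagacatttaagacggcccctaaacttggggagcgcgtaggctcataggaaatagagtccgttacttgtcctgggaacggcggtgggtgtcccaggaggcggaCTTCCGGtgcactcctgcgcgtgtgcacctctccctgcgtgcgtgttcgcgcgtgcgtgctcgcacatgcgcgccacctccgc
The NUP210 window was the richest in G and C among the 27 members with a RefSeq window, at 80.8% against 61.2% for POM121 and a member median of 62.8%. The median over all 35116 windows was 58%.

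NUP210 was at 48.4, 42.7 and 43.9 FPKM in shNC and at 19.7, 20.5 and 21.7 FPKM in shACAT2. The groups were far apart, and the libraries of each lay close together (mean 45.0 ± 3.01 and 20.6 ± 0.960, SD, n = 3). The shACAT2 mean was 0.459 of the shNC mean. The log2 fold change was -1.09 (SE 0.10, 95% interval -1.32 to -0.85, limma adjusted p = 0.00479), and 59 of all genes tested had a lower log2 fold change. These values rest on 2453 to 6192 fragments per library. NUP210 passed the threshold in each of 15 alternative analyses, with a log2 fold change between -1.18 and -1.003, and in each it was the lowest of the 30 members. Without shACAT2 replicate 3 it was at -1.12 (limma adjusted p = 0.00949). In bulk RNA, fewer cells with a transcript and less of it per cell cannot be told apart.

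**Figure D1:**
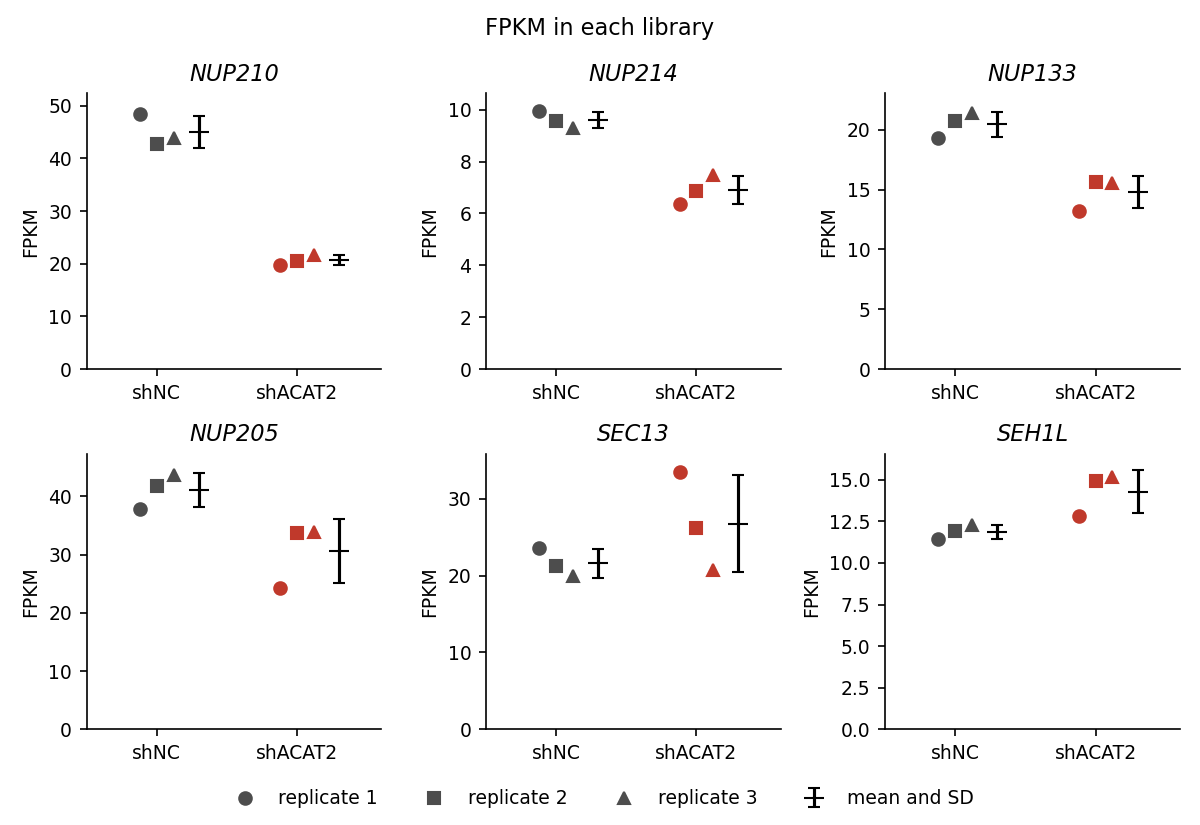
FPKM of 6 nucleoporin genes in each library of shNC (grey) and shACAT2 (red), with the mean and SD (n = 3) in black and a symbol for each replicate number; each vertical axis starts at 0. NUP210 is at 42.7 to 48.4 FPKM in shNC and 19.7 to 21.7 FPKM in shACAT2, the widest gap of the 6 genes, while SEC13 overlaps between the groups.

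Across the pore, 2 of the 30 members fell (NUP210 and NUP214) and 0 rose, where 1.81% of all genes tested were called lower and 3.3% higher. All 30 passed the filter on low values. At an unadjusted p under 0.05, 4 members were lower and 1 was higher, against 10.7% and 12.8% of all genes tested. By adjusted p, 0 members were called higher under any of the 15 alternatives, limma-voom included. With the replicate number as a block 3 members were called lower, NUP133 being the addition (limma adjusted p = 0.0288), against 4.81% of all genes lower and 7.67% higher. Groups did not overlap for 6 members that were lower and 2 that were higher, against backgrounds of 14.5% and 16.2%. Each of these lower counts includes NUP210, whose fall was known beforehand. Among the other 29 members 1 was called lower, and 2 were with the block. At an unadjusted p under 0.05, 3 of the 29 were lower, and 5 were lower without overlap.

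The other 29 members had a median log2 fold change of -0.12, against 0.02 over all genes tested, and ranged from -0.44 to 0.28. The sign was negative for 19 of them and positive for 10, and over all genes tested for 6598 and 7234. With NUP210 included 20 of 30 were negative, or 22 under upper-quartile scaling, scaling to total fragments or limma-voom, where NUP85 and NUP88 turned negative. The median over all genes moved down under these settings too, to -0.011, -0.029 and -0.035 in that order. For 28 of the 29, the whole 95% interval lay above that of NUP210, the exception being TPR, whose interval reached -0.98. With the replicate number as a block, the TPR interval was -0.58 to -0.13, above that of NUP210 at -1.30 to -0.87. The median of the 29 stayed negative in every alternative and came closest to 0, at -0.04, without shACAT2 replicate 1.

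**Figure D2:**
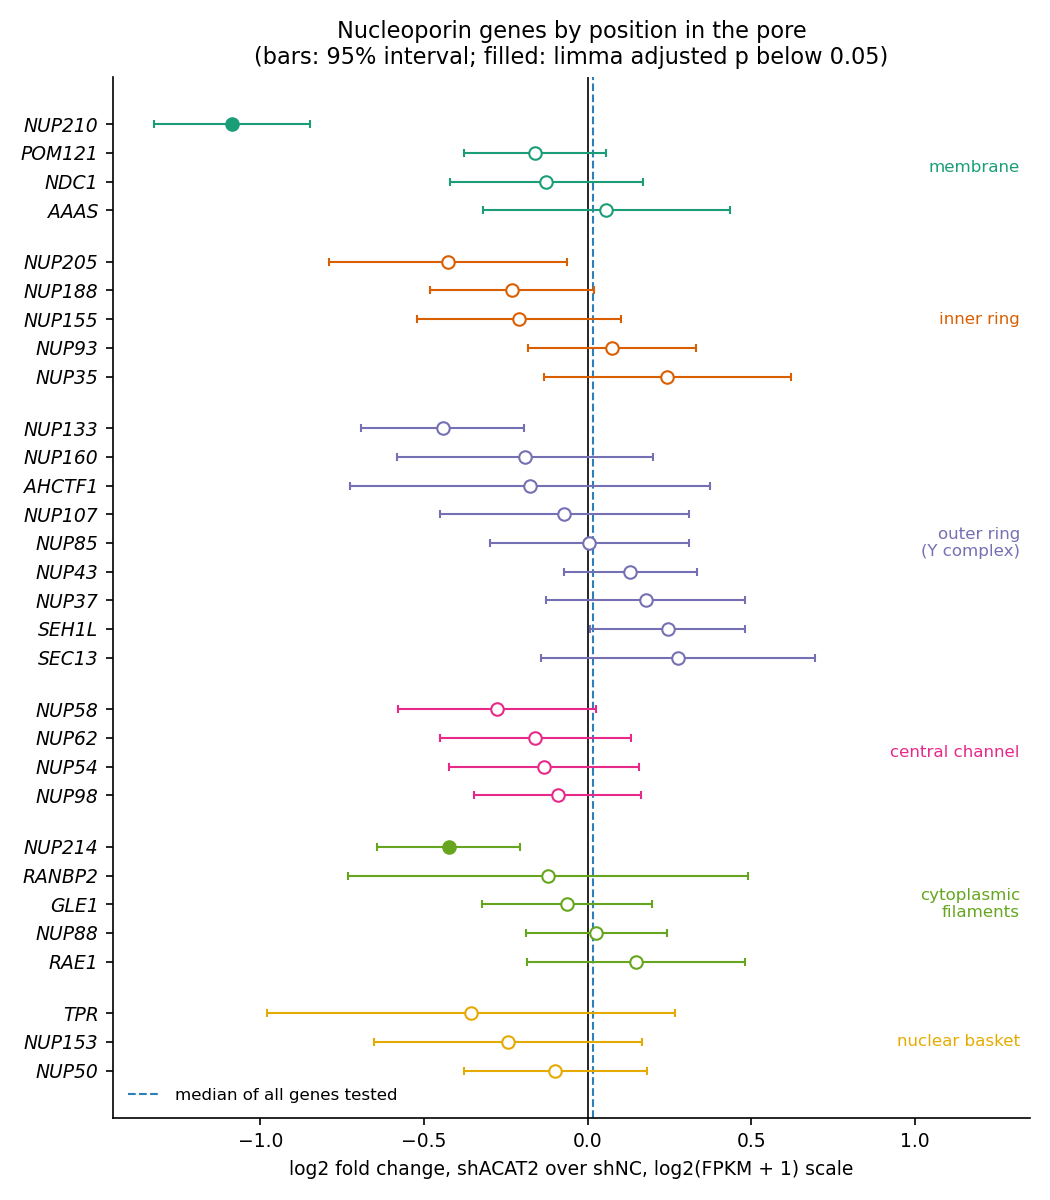
Log2 fold change (shACAT2 over shNC, log2(FPKM + 1) scale) of the 30 members grouped by their place in the pore, with 95% intervals from limma; filled points have an adjusted p below 0.05 and the dashed line is the median of all genes tested, 0.02. NUP210 stands alone at -1.09, NUP214 is the only other filled point at -0.43, and the remaining members lie between -0.44 and 0.28.

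Among the 4 membrane members, NUP210 was the only one called. POM121, which anchors the pore in the envelope, was at 17.3, 15.6 and 15.8 FPKM in shNC and 13.9, 14.5 and 14.8 FPKM in shACAT2. Its groups did not overlap, with a log2 fold change of -0.16 (limma adjusted p = 0.336). NDC1, a transmembrane nucleoporin needed for pore assembly, had a log2 fold change of -0.13 (limma adjusted p = 0.592) and AAAS, or aladin, which NDC1 recruits to the pore, one of 0.06 (limma adjusted p = 0.865). The 95% intervals allow a log2 change from -0.38 to 0.05 for POM121 and from -0.42 to 0.17 for NDC1.

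NUP210 and 2 inner ring genes held the highest FPKM of all members in shNC. NUP188, a large scaffold subunit, was at 49.2, 42.8 and 43.9 FPKM in shNC and 38.6, 36.3 and 40.4 FPKM in shACAT2, the highest member in both groups (log2 fold change -0.23, limma adjusted p = 0.244). NUP205, its structural relative, was at 37.8, 41.8 and 43.6 FPKM in shNC and 24.2, 33.8 and 33.8 FPKM in shACAT2. The groups did not overlap but shACAT2 replicate 1 lay well under the other two, and the log2 fold change of -0.43 did not pass the test (SE 0.15, limma adjusted p = 0.157, 0.0502 with the replicate block). NUP155 had a log2 fold change of -0.21, NUP93, the linker to the channel, one of 0.07 and NUP35 one of 0.24. The ring had 3 negative and 2 positive values, none of which was called.

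The 9 outer ring genes split, with 4 negative and 5 positive values (NUP85, at 0.00, turned negative under other scalings) and a median log2 fold change of 0.00. NUP133, at the stem of the Y complex, was at 19.3, 20.7 and 21.4 FPKM in shNC and 13.2, 15.6 and 15.6 FPKM in shACAT2. Its groups were separate, and its log2 fold change of -0.44 (SE 0.11, limma adjusted p = 0.0619) missed the threshold. It passed in 3 of the 15 alternatives, which were the replicate block, limma-voom (limma adjusted p = 0.0479) and the analysis without both replicate 1 libraries (limma adjusted p = 0.0495). NUP107, its direct partner in the stem, had a log2 fold change of -0.07, NUP160 one of -0.19 and AHCTF1 (ELYS), which seeds pores on chromatin, one of -0.18.

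At the other end stood SEC13 and SEH1L, beta-propeller subunits of the Y complex that also serve the GATOR2 complex and, for SEC13, COPII vesicles. SEC13 was at 23.6, 21.2 and 19.9 FPKM in shNC and 33.4, 26.1 and 20.7 FPKM in shACAT2. It had the highest log2 fold change of the members, 0.28, but the groups overlapped and it was not called (SE 0.18, limma adjusted p = 0.395). SEH1L was at 11.4, 11.9 and 12.3 FPKM in shNC and 12.8, 14.9 and 15.1 FPKM in shACAT2. Its groups did not overlap, with a log2 fold change of 0.24 that was not called (SE 0.10, limma adjusted p = 0.200). NUP43 was 0.13 higher without overlap, NUP37 0.18 higher, and neither passed the test.

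All 4 channel genes had negative values. NUP62, NUP54 and NUP58, which form the central Phe-Gly trimer, had log2 fold changes of -0.16, -0.13 and -0.28, and NUP98, a Phe-Gly nucleoporin that also lies off the pore, one of -0.09. The smallest limma adjusted p of the channel was 0.246, for NUP58.

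On the cytoplasmic face NUP214 (ENSG00000126883, chr9:131125561-131234670, plus strand), the Phe-Gly nucleoporin that docks export complexes, was at 9.94, 9.55 and 9.31 FPKM in shNC and 6.37, 6.87 and 7.47 FPKM in shACAT2. It fell in every shACAT2 library against every shNC library, with a log2 fold change of -0.43 (SE 0.09, limma adjusted p = 0.0488). That call lay at the edge of the threshold and held in 4 of 15 alternatives. It was lost on leaving out any library other than shACAT2 replicate 3, with a limma adjusted p of up to 0.202 without shNC replicate 2, and 0.0582 to 0.186 without shACAT2 replicate 1 or 2 or shNC replicate 1 or 3.

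The partner of NUP214 in the filament complex, NUP88, was at 13.2, 13.1 and 12.9 FPKM in shNC and 13.4, 12.4 and 14.2 FPKM in shACAT2. It had a log2 fold change of 0.03 (limma adjusted p = 0.890). The NUP214 to NUP88 ratio was 0.753, 0.729 and 0.722 in shNC and 0.476, 0.552 and 0.527 in shACAT2, so the pair was apart in every library. RANBP2, the SUMO ligase of the filaments, had a log2 fold change of -0.12, GLE1, an mRNA export factor, one of -0.06 and RAE1 one of 0.15, none called.

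The 3 basket genes were all on the negative side without a call. TPR, the basket's scaffold, was at 14.3, 21.7 and 21.0 FPKM in shNC and 9.55, 18.1 and 17.2 FPKM in shACAT2. Replicate 1 was low in both groups, and the log2 fold change of -0.36 had a wide error (SE 0.26, limma adjusted p = 0.466, 0.0612 with the replicate block). NUP153 and NUP50 had log2 fold changes of -0.24 and -0.10.

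Measured within each library, NUP210 lost ground against nearly every other member. It made up 8.15, 6.98 and 7.18% of the summed FPKM of the 30 members in shNC and 3.88, 3.73 and 3.88% in shACAT2. The other 29 summed to 546, 569 and 567 FPKM in shNC and 489, 530 and 537 FPKM in shACAT2, so these groups did not overlap either, though they lay closer. By FPKM, NUP210 ranked 2, 2 and 2 among the 30 in shNC and 11, 11 and 9 in shACAT2.

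The ratio of NUP210 to each other member was lower in every shACAT2 library than in every shNC library for 28 of 29, TPR being the exception. The ratio to TPR was 3.39, 1.96 and 2.09 in shNC and 2.07, 1.14 and 1.26 in shACAT2, lower in shACAT2 at each replicate number. All 29 ratios and the permutation p below rest on the same NUP210 values, known to be lower, so they are no separate support. Its ratio to POM121 was 2.80, 2.73 and 2.77 in shNC and 1.42, 1.42 and 1.46 in shACAT2. Its ratio to NUP188 was 0.983, 0.998 and 0.999 in shNC and 0.511, 0.566 and 0.536 in shACAT2. The ratio of shACAT2 to shNC means of these ratios ran from 0.374 against NUP35 to 0.639 against NUP214. NUP210 stood 1.34 ± 0.14 above the median of the other 29 in shNC and 0.39 ± 0.08 above it in shACAT2 on the log2(FPKM + 1) scale (SD, n = 3), a difference of -0.95 with a two-sided exact permutation p of 0.1, the smallest that 3 against 3 libraries allow.

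**Figure D3:**
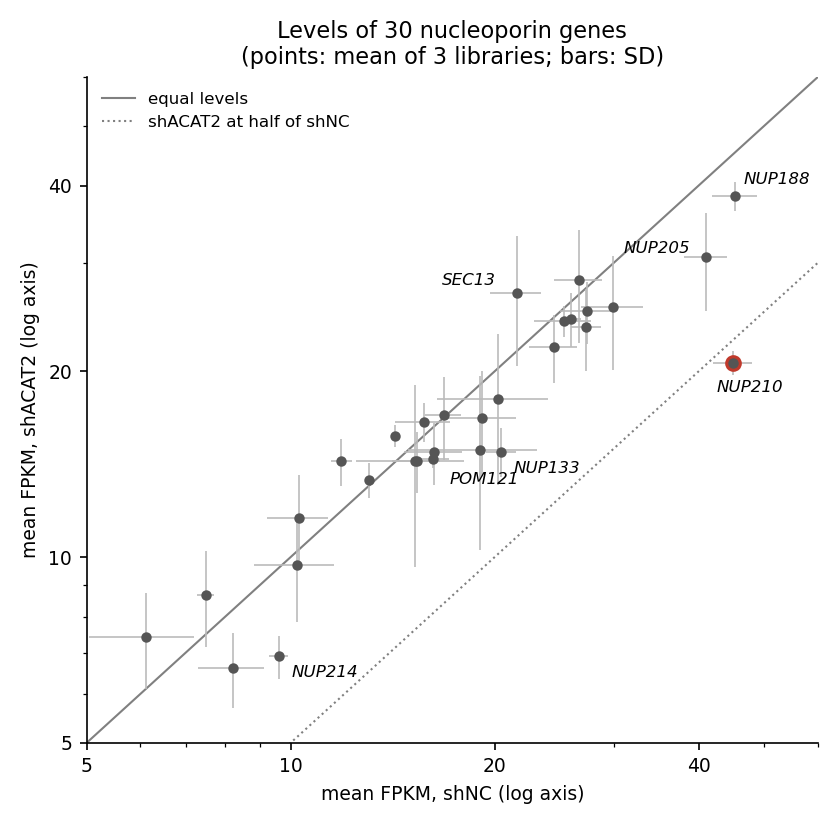
Mean FPKM of the 30 members in shNC (horizontal, log axis) and shACAT2 (vertical, log axis), with SD bars (n = 3), a solid line at equal levels and a dotted line where shACAT2 is at 50% of shNC. NUP210 (red) is at 45.0 and 20.6 FPKM, beneath the dotted line, and the other members lie above it.

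Part of the spread among the other members followed the replicate number. In both groups replicate 1 stood apart from replicates 2 and 3 in the same members, lower in both for 16 and higher in both for 9. TPR was offset by -0.55 in shNC and -0.82 in shACAT2 on the log2(FPKM + 1) scale, RANBP2 by -0.45 and -0.86, AHCTF1 by -0.47 and -0.72, and SEC13 by 0.19 and 0.50. Over the 30 members the offsets of the 2 groups had a Pearson correlation of 0.884, against 0.445 over all 13832 genes. Of those genes, 7749 had a mean FPKM no higher than the lowest member, so the 2 correlations cover unlike levels. Both are descriptions, since the points share the same libraries.

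NUP210 was not among the members with a shared offset. Its replicate 1 was 0.16 above the others in shNC and 0.09 under them in shACAT2. With both replicate 1 libraries left out, an analysis added after seeing the data, its log2 fold change was -1.003 (limma adjusted p = 0.0291), the median of the other 29 was -0.07, and NUP210 and NUP133 were the members called. NUP214 then had a limma adjusted p of 0.0689.

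**Figure D4:**
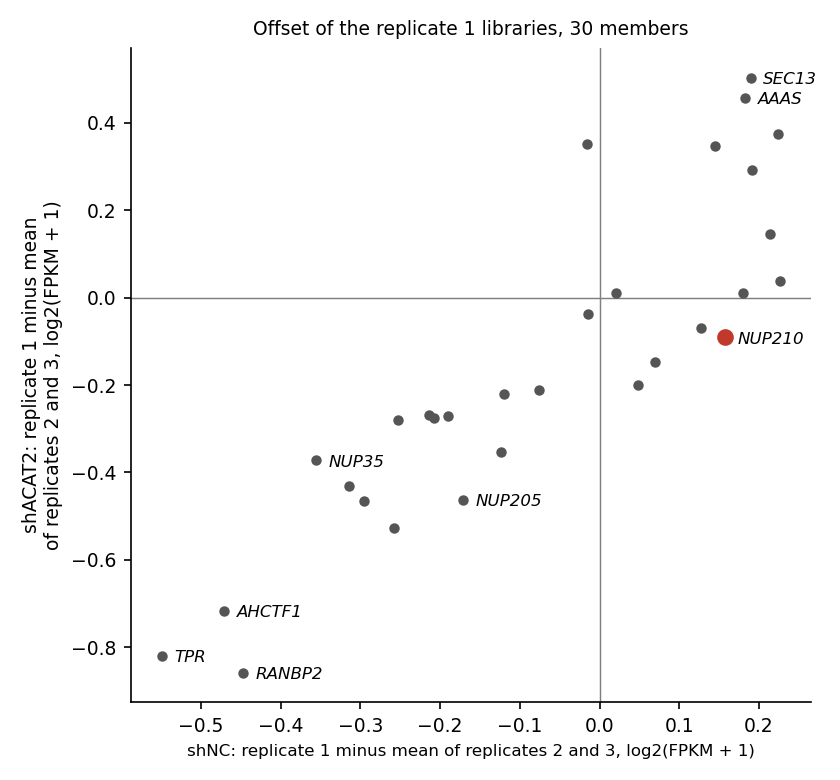
Replicate 1 minus the mean of replicates 2 and 3, on the log2(FPKM + 1) scale, in shNC (horizontal) and shACAT2 (vertical) for the 30 members. TPR, RANBP2 and AHCTF1 are lowest in both groups and SEC13 is high in both, while NUP210 (red) is at 0.16 and -0.09.

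Some members share sequence with other genes, which bears on how their fragments could be assigned. Of the 31-base stretches in NUP210 transcripts of the annotation, 1.37% also occurred in transcripts of another gene, and no annotated exon of another gene overlapped its exons. The share was 52.5% for AHCTF1, mostly with the pseudogene AHCTF1P1, 47.1% for POM121, mostly with its paralogue POM121C, and 33.4% for RANBP2, mostly with RGPD8. Levels of these 3 are therefore uncertain. Opposite-strand genes overlapped 9.16% of the exonic bases of NUP214, 18.7% of those of its partner NUP88 and 18.9% of those of POM121. For NUP62 genes on either strand overlapped 21.1%. The strand setting of the counting was not given, which bears on the NUP214 to NUP88 ratio too.

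Paralogues of the members gave no called change. POM121C was at 24.5, 23.0 and 22.3 FPKM in shNC and 24.8, 23.4 and 24.1 FPKM in shACAT2 (log2 fold change 0.05, limma adjusted p = 0.795). NUP62CL had a log2 fold change of -0.30 (limma adjusted p = 0.246). NUP210L, the paralogue of NUP210 known from testis, lay between 0.0112 and 0.181 FPKM in all libraries, and the RGPD copies of RANBP2 were likewise under the filter. Of 16 paralogues and other pore genes 5 were tested, 0 were called in either direction (0 at an unadjusted p under 0.05 as well, and 0 with the block). By adjusted p, 1.81% of all genes were called lower and 3.3% higher.

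Short motifs were searched for in the promoter windows on both strands. The GC box (GGGCGG), present in NUP210, occurred in 12 of 27 member windows and 42.6% of all windows. The ETS motif (CCGGAAG) occurred in 11 of 27 member windows, 40.7%, and in 8.52% of all windows, and the NUP210 window was not among them. The CCAAT box, with the letters of its name, occurred in 9 of 27 member windows and 32.0% of all. An E-box (CACGTG) was found in 2 of 27 members, NUP188 and NUP50, and in 6.34% of all windows. The E2F motif searched (GGCGGGAA), which can overlap a GC box, was in 0 member windows and 2.72% of all, and the NRF1 motif in 3 member windows and 1.03% of all. NUP214 held a CCAAT box and an ETS motif, and NUP133 GC boxes. Member windows held a median of 22 CpG against 11 over all windows, and the ETS and NRF1 motifs contain CpG, so these shares compare unlike windows. The RefSeq starts of NUP35 and AAAS lay 6930 and 3254 bases from the deposited gene starts. The motif counts are matches of letters only.

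Around NUP210, 15 genes lay within 500 kb, and 4 passed the filter, of which 0 were called by limma with or without the block. At an unadjusted p under 0.05, 1 was higher, as were 12.8% of all genes tested. IQSEC1, an ARF exchange factor gene 33.0 kb away, was at 6.58, 5.403 and 5.73 FPKM in shNC and 7.71, 7.70 and 8.25 FPKM in shACAT2. It was higher without overlap, opposite to NUP210 (log2 fold change 0.37, limma adjusted p = 0.0810). HDAC11 had a log2 fold change of -0.13, CAND2 one of -0.08 and RPL32 one of 0.15.

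Genes that work with the pore gave few calls in the main analysis, as did all genes tested (1.81% lower and 3.3% higher). Of 31 transport receptors and Ran cycle genes 28 were tested, with a median log2 fold change of -0.13, close to that of the other pore members. KPNA1, an importin alpha, fell from 4.93, 5.41 and 5.41 FPKM in shNC to 2.77, 3.40 and 3.43 FPKM in shACAT2 (log2 fold change -0.58, limma adjusted p = 0.0270), and it was the only gene of the list called, in 9 of 15 alternatives. The call was lost without any of the 3 shNC libraries or shACAT2 replicate 2 (limma adjusted p 0.0820 to 0.141). At an unadjusted p under 0.05, 4 were lower and 0 higher, against 10.7% and 12.8% of all genes. With the replicate block 4 were called lower and 0 higher, against 4.81% and 7.67% of all genes. The additions were TNPO2, IPO7 and IPO9 (limma adjusted p = 0.0288, 0.0413 and 0.0413 with the block). Groups did not overlap for 8 that were lower and 0 that were higher, against the same 14.5% and 16.2% of all genes.

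Of 24 nuclear envelope and lamina genes 23 were tested, with a median log2 fold change of 0.00. CHMP7, an ESCRT subunit that acts in sealing the envelope and in clearing faulty pores, fell from 15.0, 13.2 and 13.6 FPKM to 9.04, 8.96 and 7.90 FPKM (log2 fold change -0.63, limma adjusted p = 0.0207). TMEM43, an inner membrane protein, rose from 21.3, 17.5 and 18.4 FPKM to 30.7, 26.3 and 27.9 FPKM (log2 fold change 0.55, limma adjusted p = 0.0447). With the replicate block 2 genes were called lower and 1 higher, against 4.81% and 7.67% of all genes. The addition was SYNE2, a linker of nucleus and cytoskeleton (log2 fold change -0.66, limma adjusted p = 0.136, and 0.0251 with the block). The calls of CHMP7 and TMEM43 held in 9 and 7 of the 15 alternatives. That of CHMP7 was lost without any shNC library or shACAT2 replicate 2 (limma adjusted p 0.0820 to 0.113), and that of TMEM43 without any of the 6 libraries (0.0576 to 0.208).

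Of 19 mRNA export factors 17 were tested and 0 were called. At an unadjusted p under 0.05, 1 was lower and 1 higher, against 10.7% and 12.8% of all genes. With the replicate block 1 was called higher, against 7.67% of all genes. The 13 listed partners of SEC13 (COPII and GATOR2) and SEH1L (GATOR2) were all tested, with 0 called, 0 with the block and a median of -0.08. At an unadjusted p under 0.05, 1 was higher, against 12.8% of all genes. Among the MEF2 factors and TRIP6, a list that holds known partners of NUP210 in muscle, 3 of 5 genes were tested and 0 were called. MEF2B and MEF2C were under the filter, MEF2C at 0.00493 to 0.102 FPKM. The 3 tested had log2 fold changes of 0.37 to 0.50, with 2 higher at an unadjusted p under 0.05, against 12.8% of all genes. MEF2A and MEF2D were called higher with the replicate block (limma adjusted p = 0.0293 and 0.0328), as were 7.67% of all genes.

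Among 16 cell cycle genes, all tested, 7 log2 fold changes were negative and 9 positive. PCNA rose (log2 fold change 0.68, limma adjusted p = 0.0208) and 0 fell, against 3.3% and 1.81% of all genes. With the replicate block 2 fell and 1 rose, against 4.81% and 7.67% of all genes. The 2 were MKI67 (log2 fold change -0.59, limma adjusted p = 0.0493 with the block) and MCM2 (-0.39, limma adjusted p = 0.0359 with the block). Of 9 markers of blood, vessel, stromal and liver cells, 3 were tested. COL1A1 rose from 67.0, 57.9 and 58.0 FPKM to 139, 116 and 108 FPKM and DCN from 8.17, 8.08 and 8.08 FPKM to 12.9, 11.2 and 12.7 FPKM (log2 fold change 0.97 and 0.54, limma adjusted p = 0.0136 and 0.0246). The calls of PCNA, COL1A1 and DCN were each lost without any shNC library or shACAT2 replicate 2, with limma adjusted p of up to 0.136, 0.0983 and 0.140. The 9 markers summed to 68.6 to 78.1 FPKM in shNC and 125 to 157 FPKM in shACAT2, and the 6 others, PTPRC and PECAM1 among them, were under 1 FPKM in every library. VIM, a mesenchymal marker, had a log2 fold change of 0.62 and was called higher with the replicate block but not without it (limma adjusted p = 0.0634, and 0.0265 with the block). The same held for COL1A2, with a log2 fold change of 0.45 (limma adjusted p = 0.0772, and 0.0432 with the block). The part of these in the fall of NUP210 was not tested.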

How the data were processed

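The authors deposited 1 table of FPKM values per gene for the 6 libraries (3 shNC, 3 shACAT2). Sequencing and analysis were done by a service company. The submitters' processing notes name HISAT2 2.0.5, featureCounts 1.5.0-p3, DESeq2 1.20.0 and hg38, without their order or settings, and the strand setting was not given. All 58735 gene coordinates equal those of GENCODE 29. The FPKM values gave back whole fragments for 100% of values (tolerance 0.02), used for depth and for limma-voom.

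From these values log2(FPKM + 1) was tested with limma 3.58.1 (trend) in R 4.3.3, keeping genes whose average reached 1 FPKM for shNC or for shACAT2, with Benjamini-Hochberg adjustment over all genes tested and a threshold of 0.05. The procedure was run on simulated independent libraries, which lacked the replicate 1 offset and the close shNC pair seen here, so that run does not bear on them. No per-sample column was left unused. Members, lists and rules were chosen with earlier results of these data known. All 30 members are named, with library values for NUP210, members past the threshold and the 2 at each extreme (and a few partners, chosen after their values were seen). From other lists, called genes and paralogues are named, and tested genes within 500 kb of NUP210. The replicate 1 libraries of the 2 groups deviated together over genes (correlation 0.445). Replicates 2 and 3 did so under either pairing, at 0.126 and 0.171 for same numbers and 0.198 and 0.141 for crossed numbers. The data therefore pair the replicate 1 libraries only. For replicates 2 and 3 the block rests on the numbers alone, and no shared batch was stated. Alternatives were other scalings, filters and a pseudocount of 0.1, limma-voom, the replicate block, each library left out, shNC replicates 2 and 3 averaged, and both replicate 1 libraries left out (added after seeing the data). Promoter windows are RefSeq (GRCh38.p14), matched by symbol for 27 of 30 members.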

Additional observations from a re-analysis of the deposited data

How the results depend on the processing

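Over 15 alternatives NUP210 kept its direction and its call. Leaving out each library in turn gave a log2 fold change of -1.12 to -1.03 (limma adjusted p 0.00768 to 0.0472), and the replicate block gave a limma adjusted p of 0.0130. ACAT2 kept its direction, with a leave-one-out range of -1.07 to -0.94, and lost its call without shNC replicate 3 (-1.01, limma adjusted p = 0.0512). The number of members called lower, 2, was 1 (NUP210 alone) under upper-quartile scaling, with no filter, with a minimum of 10 fragments per library, on averaging shNC replicates 2 and 3 and when 0.1 was the pseudocount. It ranged from 1 to 2 on leaving out a library, and was 3 with the replicate block and with limma-voom. The median of the other 29 ranged from -0.16 to -0.04 on leaving out a library. It reached -0.19 with limma-voom, where the median over all genes was -0.035. Over all genes, 706 calls became 63 without shNC replicate 3 and 83 on averaging shNC replicates 2 and 3. They became 1727 with the replicate block and 1167 with limma-voom (250 lower and 456 higher against 580 and 587).

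Signs were the same in all alternatives for 22 of the 29 other members. NUP85 turned negative under upper-quartile scaling (-0.026), scaling to total fragments (-0.046), limma-voom (-0.048), averaged shNC replicates (-0.019) and without both replicate 1 libraries (-0.063). NUP88 turned negative under the same 2 scalings (-0.0038 and -0.023) and limma-voom (-0.026). Without both replicate 1 libraries AAAS was at -0.034 and RANBP2 at 0.014. POM121C was at -0.0020 on total fragments and -0.0022 by limma-voom. On leaving out a library, the ranges that crossed 0 were -0.33 to 0.062 for AHCTF1, -0.28 to 0.16 for RANBP2, -0.18 to 0.072 for NUP107, -0.11 to 0.011 for GLE1, -0.11 to 0.085 for NUP85, -0.016 to 0.072 for NUP88, -0.095 to 0.19 for AAAS and -0.014 to 0.26 for RPL32. The cause was not tested. The block changed no call of the members other than NUP133.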
